A study of Gallus gallus with 53 samples.

Results

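The transcriptional response of DT40 cells to CD40 ligation was compared between cells with an inactive IκB kinase β (IKKβSA) and wild type cells (WT). The comparison rests on 12 of the 53 columns of the deposited table, 6 from each cell type. IKKβSA cells were measured without stimulation (0 min) and at 15, 30, 45, 60 and 90 min after CD40 ligand (CD40L) at 6 μg/ml. WT cells were measured at the same times and the same dose. The columns were chosen by their labels alone, and each stimulated column was read against the 0 min column of its own cell type.

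DT40 is a B cell line from a chicken bursal lymphoma that is widely used for gene targeting. IKKβSA stands for a form of IKKβ in which activation-loop serines are replaced by alanine, so that upstream kinases cannot switch it on. The study's methods describe knockout and knock-in lines for IKKβ. The microarray methods name wild type DT40 cells, and the number of clones is not stated. The CD40L was a fusion of the soluble chicken ligand with GST. The methods can be read as giving a MEK inhibitor to IKKβSA cells before stimulation, whereas the labels name that pre-treatment for wild type cells (WT + Inh) only. Per the labels, 2 biological replicates were merged into every column. The table therefore carries no spread between replicates, and the errors used here come from the scatter of columns around smooth time courses.

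CD40 is a receptor of the TNF receptor family on B cells, and its ligand CD40L (CD154) is carried mainly by activated T cells. Ligation recruits TRAF adaptor proteins to the receptor tail and activates the IKK complex and the MAP kinases, among them ERK. In the canonical NF-κB pathway, IKKβ phosphorylates the inhibitor IκB, IκB is degraded, and NF-κB dimers enter the nucleus and induce target genes, including inhibitors of the pathway itself. CD40 also uses a non-canonical NF-κB pathway that runs through NIK and IKKα. The IKKβSA cells address which part of the CD40 response needs the activation of IKKβ. Other differences between IKKβSA and WT cells cannot be told apart from the mutation in this design.

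The values are linear RMA intensities of the 38361 probe sets on the chicken array, of which 26852 were bright enough to be tested. The row identifiers of the table do not pair with its values, so no gene is named. Probe sets are described by their values, and neither the cell type nor the mutation could be checked against marker transcripts. Median intensities of the 12 columns lay between 2.74 and 2.95. In each of them, 26.7% to 26.9% of the probe sets exceeded an intensity of 10. The unstimulated WT column had the lowest median of all 53 columns and, of the 12, the largest scatter around its fitted curves (median 0.0541 on the log2 scale). That scatter depends on how many courses share a column. It was 0.0507 in the IKKβSA column at 15 min and reached 0.0852 among the 53. Every WT change from 0 min rests on the unstimulated WT column, and for part of the results values measured without it are also given. No column was taken without ligand after 0 min, so that a drift over time cannot be told apart from a response to CD40L.

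Expression changed over the CD40L course in IKKβSA cells, and fewer probe sets were called than in WT cells. A spline over time, tested with limma's moderated F-test, called 926 probe sets (3.45% of those tested, adjusted p under 0.05) in the IKKβSA course. The same test called 1764 (6.57%) in the WT course. More courses share the WT starting level than the IKKβSA one in this fit, so the 2 tests do not have equal power. Fits of only the course compared, with 2 residual degrees of freedom, called 1706 in IKKβSA cells and 2021 in WT cells. Without adjustment, 14.9% of probe sets in the IKKβSA course and 19.0% in the WT course had a p under 0.05. Of the calls in IKKβSA cells, 527 (1.96%) had their largest change upward and 399 (1.49%) downward. In WT cells, 688 (2.56%) went upward and 1076 (4.01%) downward. In WT cells at 1 and 3 μg/ml, 642 and 1143 went upward and 379 and 557 downward. In WT + Inh cells, 1141 went upward and 738 downward. After centring of the columns on their medians, the calls were 380 upward and 250 downward in IKKβSA cells, and 395 upward and 1263 downward in WT cells.

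Large changes were fewer and more one-sided in the mutant. A called change of at least 2-fold was found for 77 probe sets (0.287%) in IKKβSA cells, 63 of them higher and 14 lower. In WT cells it was found for 104 (0.387%), 53 higher and 51 lower. An upward excess was not particular to the mutant. In WT cells at 3 μg/ml 51 were higher and 20 lower, and in WT + Inh cells 145 were higher and 55 lower. In WT cells at 1 μg/ml 5 were higher and 26 lower. Over all probe sets tested, the median absolute log2 change from 0 to 90 min was 0.13 in IKKβSA cells and 0.17 in WT cells. From 15 to 90 min it was 0.11 in IKKβSA cells and 0.11 in WT cells. The standard error of a change between 2 columns had a median of 0.16.

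The 2-fold changes built up over the course in both cell types. In IKKβSA cells 0, 5, 11, 20 and 56 of the called probe sets stood 2-fold or more above 0 min at 15, 30, 45, 60 and 90 min. In WT cells the corresponding numbers were 3, 3, 17, 27 and 44. Read from 0 min, IKKβSA cells thus had fewer such probe sets than WT at 45 and 60 min and more at 90 min. At least 2-fold lower at the same times were 5, 5, 5, 4 and 9 called probe sets in IKKβSA cells. The WT numbers were 7, 8, 14, 19 and 42. The gap between the cell types on this side opened from 45 min onward. The largest change fell at 90 min for 50 of the 63 higher probe sets in IKKβSA cells and for 34 of the 53 in WT cells. Among the lower ones it fell at 90 min for 6 of 14 in IKKβSA cells and for 37 of 51 in WT cells. Read from 15 to 90 min over all probe sets tested, 32 rose at least 2-fold in IKKβSA cells and 40 in WT cells. Over that interval 6 fell at least 2-fold in IKKβSA cells and 22 in WT cells. The excess of rises in IKKβSA cells at 90 min was thus seen only from 0 min. All of these are counts past a threshold in each course and not a test of the difference between the courses.

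**Figure D1:**
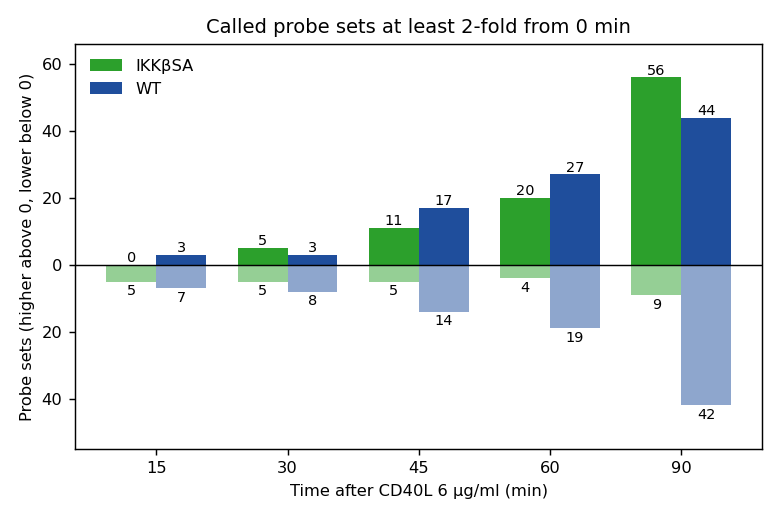
Number of called probe sets at least 2-fold from 0 min (vertical axis, higher above 0 and lower below 0) at each time after CD40L at 6 μg/ml (horizontal axis, minutes), for IKKβSA (green) and WT (blue). At 90 min the bars stand at 56 higher and 9 lower in IKKβSA cells, against 44 higher and 42 lower in WT cells.

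The 2 sets of calls shared 557 probe sets. These are 60.2% of the calls in IKKβSA cells and 31.6% of those in WT cells. Among the shared calls, 264 were higher in both courses, 262 were lower in both, and 31 had their largest change in opposite directions. The 264 shared higher calls were 50.1% of the higher calls in IKKβSA cells and 38.4% of those in WT cells. The 262 shared lower calls were 65.7% of the lower calls in IKKβSA cells and 24.3% of those in WT cells. For calls of at least 2-fold, 35 were shared, 25 higher and 10 lower, and 0 went in opposite directions. A further 369 probe sets were called in IKKβSA cells only, and 1207 in WT cells only. A call in 1 cell type alone does not show that the cell types differ. The test of the difference itself called 1 of the 369 and 19 of the 1207. Over all probe sets tested it called 28 (0.104%). Each course is 1 side of that difference, so a call in either favours a called difference.

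**Figure D2:**
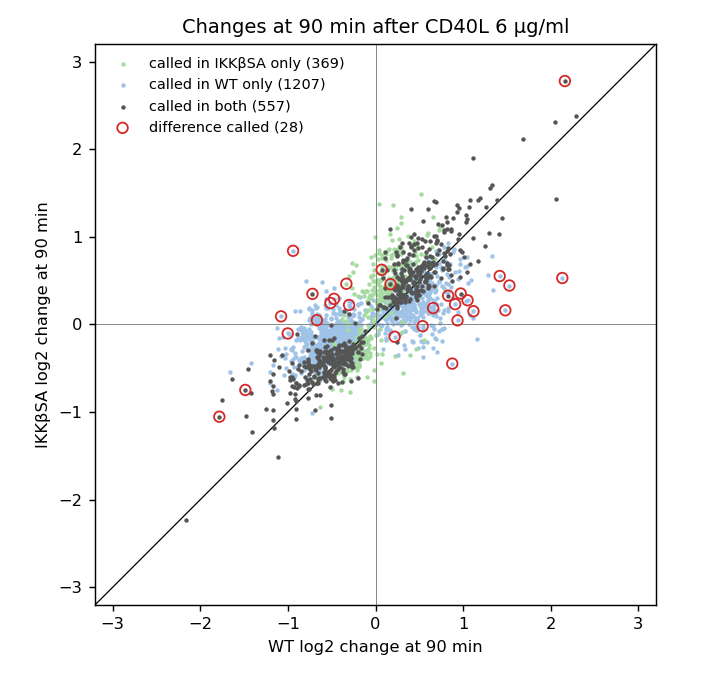
Log2 change at 90 min from 0 min in IKKβSA cells (vertical axis) against that in WT cells (horizontal axis), 1 point for each probe set called in either course, with the line of equal change. Points are coloured by the course that called them (369 in IKKβSA only, 1207 in WT only, 557 in both), and red circles mark the 28 probe sets whose difference between the courses was called.

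To measure how much of the WT response was kept, probe sets had to be chosen in columns that belong to neither course. They were taken from the CD40L course of WT + Inh cells, wild type cells pre-treated with a MEK inhibitor, which has its own 0 min column. That course had 1879 calls (7%), of which 200 (0.745%) were changes of 2-fold or more, 145 higher and 55 lower. MEK inhibition itself shapes which probe sets appear on these lists. Of the 145 higher, 74 were called in the WT course and 55 in the IKKβSA course. Of the 55 lower, 24 were called in the WT course and 13 in the IKKβSA course. Over all probe sets tested, 6.57% were called in the WT course and 3.45% in the IKKβSA course. The lists are thus not confined to called responders of WT cells. The medians of both lists are given as a description, with no test.

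The induced list had nearly the same median change in both cell types at 90 min. Its intensities were low, with medians at 0 min of 8.06 in IKKβSA cells and 10.2 in WT cells. The median log2 changes of the 145 probe sets in IKKβSA cells were 0.20, 0.19, 0.32, 0.44 and 0.62 at 15, 30, 45, 60 and 90 min. In WT cells they were 0.20, 0.25, 0.33, 0.57 and 0.62. The medians were close at every time but 60 min, and the median at 90 min in IKKβSA cells was 99.6% of that in WT cells. The median of the differences at 90 min, IKKβSA minus WT, was 0.05, with quartiles of -0.20 and 0.30. The change was smaller in IKKβSA than in WT cells for 65 of the 145 at 90 min (44.8%), and for 77 of them at 60 min (53.1%). Over all probe sets tested, the change at 90 min was lower in IKKβSA cells for 52.2%. The largest change came at 90 min for 99 of the 145 in IKKβSA cells and for 69 in WT cells. It came at 60 min for 15 in IKKβSA cells and for 46 in WT cells.

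Lower doses of CD40L in WT cells give a scale for these medians, although those courses share the 0 min column of the WT course. At 90 min the median change of the 145 probe sets was 0.62 in IKKβSA cells at 6 μg/ml, against 0.31, 0.66 and 0.62 in WT cells at 1, 3 and 6 μg/ml. The mutant thus stood near the upper 2 doses and above the lowest.

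The repressed list had smaller median changes in the mutant, at low intensities. Its median intensity was 5.85 in IKKβSA cells and 6.68 in WT cells at 0 min, and 3.53 in IKKβSA cells and 3.92 in WT cells at 90 min. The 55 probe sets had median log2 changes of -0.35, -0.30, -0.43, -0.39 and -0.38 in IKKβSA cells. In WT cells they had -0.54, -0.54, -0.63, -0.69 and -0.65. The median at 90 min in IKKβSA cells was 58.3% of that in WT cells. The change was smaller in IKKβSA cells for 38 of 55 probe sets (69.1%), and the median difference was 0.18. With 10 added to each intensity before log2, the median difference was 0.06. Most of both changes was reached by 15 min. The levels locate the gap at the start of the course. At 0 min the 55 probe sets were lower in IKKβSA than in WT cells, with a median log2 difference of -0.24, and at 90 min the median difference was -0.02. Measured from 15 to 90 min instead of from 0 min, the median difference between the courses was 0.06. Most of the gap on this list thus lies between the 0 min columns, and its cause was not tested.

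A list chosen and measured by its change from 15 to 90 min uses neither the IKKβSA nor the WT 0 min column. The 0 min column of WT + Inh cells still entered the call. This choice was added after the data were seen. Probe sets called in the WT + Inh course that rose at least 1.5-fold over that interval numbered 189. Their median log2 change was 0.43 in IKKβSA cells and 0.41 in WT cells, and it was smaller in IKKβSA cells for 86 of 189. For the 139 that fell at least 1.5-fold, the median was -0.37 in IKKβSA cells and -0.54 in WT cells. It was smaller in IKKβSA cells for 101 of 139, with a median difference of 0.15. By this choice, too, the falls were smaller in the mutant and the rises were not.

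**Figure D3:**
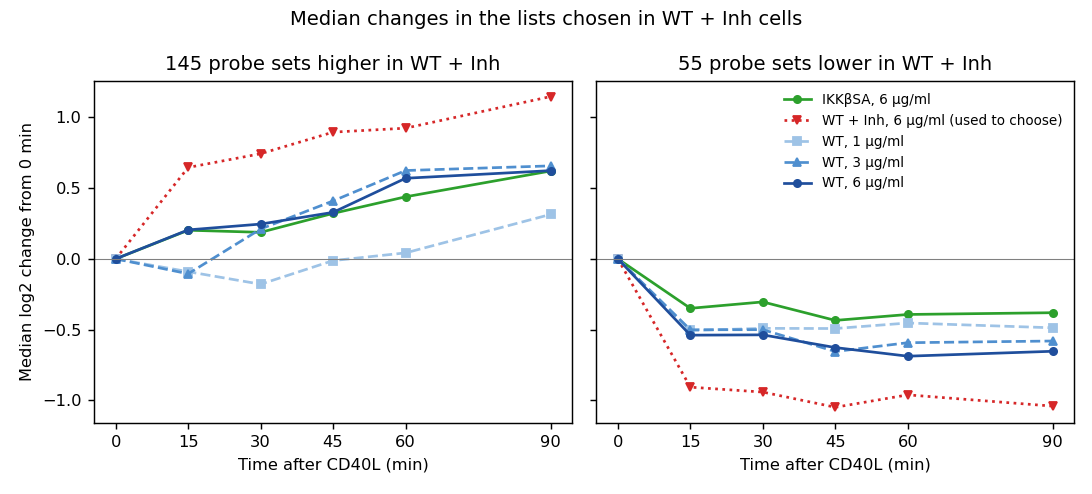
Median log2 change from 0 min (vertical axis) against time after CD40L (horizontal axis, minutes) for the 145 probe sets higher (left) and the 55 lower (right) in WT + Inh cells, in IKKβSA cells (green), WT + Inh cells (red, the course used to choose them) and WT cells at 1, 3 and 6 μg/ml (blue). At 90 min the higher list stands at 0.62 in IKKβSA and in WT cells at 6 μg/ml, and the lower list at -0.38 in IKKβSA against -0.65 in WT cells.

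Lists chosen in either of the compared courses favour that course, and they are given for both choices. The 53 probe sets at least 2-fold higher in WT cells changed at 90 min by a log2 median of 0.78 in IKKβSA cells and 1.11 in WT cells. The 63 at least 2-fold higher in IKKβSA cells had 1.18 in IKKβSA cells and 0.82 in WT cells. The sign of the gap on the induced side thus followed the course in which the list was chosen. The 51 probe sets at least 2-fold lower in WT cells had -0.56 in IKKβSA cells and -1.13 in WT cells. The 14 at least 2-fold lower in IKKβSA cells had -1.06 in IKKβSA cells and -1.17 in WT cells. On the repressed side the medians were smaller in the mutant by either choice, with 47 of the 51 and 8 of the 14 smaller in IKKβSA cells. For the 14, the median difference was 0.11, with quartiles of -0.07 and 0.40. For the wider list of 112 probe sets at least 1.5-fold lower in IKKβSA cells, the median difference was 0.03, and 60 of 112 were smaller. The gap on this side was thus larger for the list chosen in WT cells. Among the 92 probe sets called and at least 1.5-fold higher in both courses, the medians at 90 min were 0.92 in IKKβSA cells and 0.81 in WT cells. Among the 66 lower in both, they were -0.69 in IKKβSA cells and -0.90 in WT cells.

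The share of the WT change that was kept varied widely between probe sets. For the 53 induced in WT cells, the IKKβSA change at 90 min was a median 74.2% of the WT change, with quartiles of 43.9% and 114%. It was under 25% for 7 of them, from 25% to 75% for 20, and over 75% for 26. For 20 of the 53 the change was larger in IKKβSA than in WT cells. For the 51 repressed in WT cells, the median share was 49.4%, with quartiles of 34.4% and 67.2%. It was under 25% for 6, from 25% to 75% for 35, and over 75% for 10. Both lists were chosen in the WT course that is the denominator, which lowers these shares. For lists chosen in WT cells at 3 μg/ml, which share the WT 0 min column, the share was again taken of the WT change at 6 μg/ml. Shares were taken only where that WT change, in the direction of the list, was at least 0.5 on the log2 scale at 90 min. This left 49 of the 51 induced probe sets. For these 49 the median share was 98.6%, with quartiles of 73.2% and 121%, and 2 of the 49 were under 25%. For 20 repressed ones the median was 52.6%, with quartiles of 43.2% and 69.1%. The share kept on the induced side thus depended on how the list was chosen.

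The largest rises of the 2 courses overlapped, and 3 of the 4 largest in each were the same probe sets. The 4 largest rises of each course were taken among probe sets with an intensity of at least 32 in any of the 12 columns. R3, shared by both courses, met that limit in WT cells only. Its rank in IKKβSA cells rests on a 0 min intensity of 2.30, so its part in the overlap is uncertain. Together these rises cover 5 probe sets (R1 to R5). R1, the brightest of them, had intensities of 224, 235, 516, 907, 1268 and 1533 in IKKβSA cells at 0, 15, 30, 45, 60 and 90 min. In WT cells R1 had 294, 315, 520, 795, 1071 and 1313. R1 started lower in IKKβSA cells and ended higher, with a rise of 2.78 on the log2 scale in IKKβSA cells and 2.16 in WT cells. The difference of R1 was called (largest difference 0.64 ± 0.17, SE, limma adjusted p = 0.0252).

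R2 ran at a lower level in the mutant throughout. Its intensities were 56.5, 46.3, 88.9, 221, 309 and 280 in IKKβSA cells. R2 in WT cells had 119, 136, 409, 647, 644 and 493. The largest rise of R2 was 2.45 in IKKβSA cells, at 60 min, and 2.44 in WT cells, at 45 min. At 30 min R2 stood further above its 0 min value in WT cells (409 against 119) than in IKKβSA cells (88.9 against 56.5). The largest gap between the changes was -1.13 ± 0.41 (SE), at 30 min, and the difference was not called (limma adjusted p = 0.73).

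R3 and R5 reached an intensity of 32 in WT cells only, and in IKKβSA cells they stayed low. R3 had 2.30, 2.60, 3.37, 5.97, 8.33 and 12.01 in IKKβSA cells. In WT cells it had 18.0, 18.6, 47.5, 82.8, 95.3 and 88.0. Even at 90 min R3 was lower in IKKβSA cells than in unstimulated WT cells. Its 0 min value in IKKβSA cells was under the median of that column (2.90), so no fold change is given for R3. R5 had 3.40 at 0 min and 10.2 at 90 min in IKKβSA cells, against 10.3 at 0 min and 34.01 at its maximum at 45 min in WT cells. R4 had 10.5, 11.4, 9.39, 12.8, 22.4 and 45.6 in IKKβSA cells, against 29.5, 33.9, 34.9, 52.5, 84.4 and 94.2 in WT cells. In IKKβSA cells R4 stayed between 9.39 and 12.8 through 45 min and stood at 22.4 at 60 min. The differences of R3, R4 and R5 between the courses were not called, with limma adjusted p-values of 0.94, 0.26 and 0.98.

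The largest falls were chosen by the same rule, 6 in all (F1 to F6). F1 dropped between the 0 min and the 15 min columns in both cell types and then stayed low. It had 43.4, 7.08, 10.6, 9.94, 10.1 and 9.21 in IKKβSA cells. In WT cells it had 53.04, 9.64, 10.9, 8.29, 11.8 and 11.8. The fall of F1 thus rests on the 2 unstimulated columns. F2, F3 and F4 were lower at 45, 60 and 90 min than at 0 min in both cell types. F3, a bright example, had 750, 771, 626, 526, 449 and 351 in IKKβSA cells. In WT cells F3 had 892, 895, 746, 566, 501 and 397. The 2 series of F3 ran in parallel, with changes of -1.09 in IKKβSA cells and -1.17 in WT cells at 90 min. F2 changed by -1.22 in IKKβSA cells and -1.40 in WT cells, and F4 by -1.08 in IKKβSA cells and -0.91 in WT cells.

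F5 and F6 fell less in the mutant. F5 had 88.0, 84.5, 69.4, 66.6, 56.5 and 42.4 in IKKβSA cells. In WT cells F5 had 112, 90.6, 73.7, 57.1, 46.2 and 32.6. F5 started lower in IKKβSA cells, crossed the WT course between 30 and 45 min and ended higher. Its change at 90 min was -1.05 in IKKβSA cells and -1.78 in WT cells, and the difference was called (0.73 ± 0.13, SE, limma adjusted p = 0.00882). F6 changed by -1.04 in IKKβSA cells and -1.48 in WT cells, and its difference was not called (limma adjusted p = 0.57). The differences of F1, F2, F3 and F4 each had a limma adjusted p of 0.999.

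**Figure D4:**
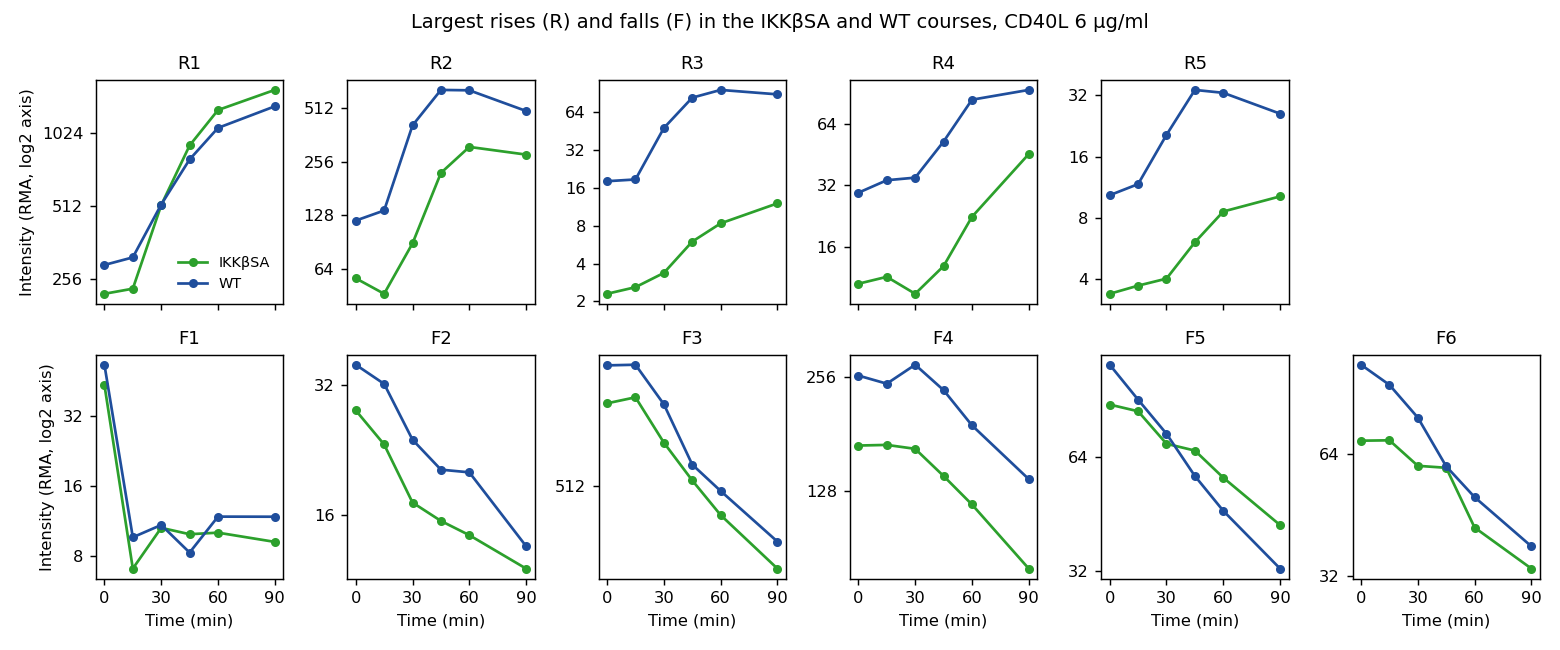
RMA intensity (vertical axes, log2 scale, ranges differ between panels) against time after CD40L at 6 μg/ml (horizontal axes, minutes) for the 5 probe sets with the largest rises (R1 to R5, upper row) and the 6 with the largest falls (F1 to F6, lower row), in IKKβSA (green) and WT (blue), 1 column per point. R2 to R5 lie lower in IKKβSA than in WT cells at all 6 times, while R1, F1 and F5 cross.

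R2 to R5 were not alone in lying lower in IKKβSA cells from the start. For R3 and R5 a lower level was favoured by the choice, as they reached the intensity limit of 32 in WT cells only. Of the 53 probe sets induced at least 2-fold in WT cells, 29 (54.7%) had a lower intensity in IKKβSA than in WT cells at all 6 times, 0 min included, and 0 had a higher one at all 6. Over all probe sets tested, 8.80% were lower in IKKβSA cells at all 6 times and 8.87% were higher. The choice of this list favours high stimulated levels in WT cells. For the 63 probe sets induced in IKKβSA cells, where the choice favours high stimulated levels in the mutant, 20 (31.7%) were lower in IKKβSA cells at all 6 times and 0 were higher. For the 145 probe sets chosen in WT + Inh cells, 29 (20%) were lower at all 6 times and 4 were higher. Lower levels were not particular to induced probe sets. Of the 51 probe sets repressed at least 2-fold in WT cells, 13 (25.5%) were lower in IKKβSA cells at all 6 times and 2 were higher. At 0 min 49 of the 51 were lower, with a median log2 difference of -0.36. Choosing falls in WT cells favours a high WT value at 0 min, so that count is largely fixed by the choice. At 90 min 20 of the 51 were lower. Of the 14 repressed in IKKβSA cells, 5 (35.7%) were lower at all 6 times and 0 were higher. The 6 columns of a cell type carry the same label for the cells, and whether they share cultures is not stated. These counts thus describe the lines and are not 6 independent observations.

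The median log2 difference of the 53 induced in WT cells was below 0 at each of the 6 times. For the 63 and the 145 probe sets it was above 0 at 90 min. The 53 probe sets had median intensities of 10.3, 10.0, 10.6, 14.4, 17.3 and 17.9 in IKKβSA cells at the 6 times. In WT cells the medians were 11.1, 13.2, 20.5, 23.7, 30.0 and 26.0. The median log2 difference IKKβSA minus WT was -0.22 at 0 min, -0.28 at 30 min and -0.58 at 90 min. For the 63 induced in IKKβSA cells it was -0.37 at 0 min, -0.08 at 30 min and 0.07 at 90 min, and their median intensity at 90 min was 26.5 in IKKβSA cells and 31.3 in WT cells. Over all probe sets tested this difference had a median of 0.03 at 0 min and 0.0019 at 90 min. Between the unstimulated columns, 7 probe sets were at least 2-fold higher and 45 at least 2-fold lower in IKKβSA than in WT cells. At 90 min the numbers were 9 and 41.

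The timing was compared on the 92 higher and 66 lower probe sets that both courses called with a change of 1.5-fold or more in the same direction. For each, the first time at which the change had passed 50% of its own largest value was read. Among the higher ones this time was 15, 30, 45, 60 and 90 min for 10, 16, 20, 35 and 11 probe sets in IKKβSA cells. In WT cells it was so for 19, 10, 26, 31 and 6. It was earlier in IKKβSA cells for 12 of the 92, the same for 49 and later for 31. Among the lower ones the IKKβSA counts at these times were 8, 6, 20, 24 and 8, against WT counts of 9, 9, 30, 12 and 6. There it was earlier in IKKβSA cells for 12 of 66, the same for 29 and later for 25. Where the time differed, it was later in the mutant for the larger number in both directions. For the higher ones, the median share of the largest change reached by 15 min was 13.2% in IKKβSA cells and 8.24% in WT cells. By 30 min the shares were 27.2% and 26.3%, and by 45 min 48.7% and 54.0%. For the lower ones they were 9.49% in IKKβSA cells and 23.4% in WT cells by 15 min, and 50.3% and 61.6% by 45 min. There was 1 column at each time, in steps of 15 or 30 min, and an error in a single column can move a probe set by a step. All changes of a cell type were read from its unstimulated column, so an error there can move many probe sets together. Timing without the unstimulated columns was not computed, and these counts were not tested.

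Differences between the courses were then tested directly. The F-test of the 3 spline differences called 28 probe sets (0.104%). The difference, IKKβSA minus WT, was upward for 14 (0.0521%) and downward for 14 (0.0521%). Without adjustment, 1431 probe sets (5.33%) had a p under 0.05. That share is close to what the threshold of 0.05 itself would pass with no difference at all. The difference was at least 2-fold for 8 of the 28 (0.0298% of those tested). The standard error of a difference of 2 changes had a median of 0.23 over all probe sets tested. The next adjusted p outside the threshold was 0.0537. The 28 are numbered by size of the difference, P1 to P28, and R1 and F5 are P23 and P19.

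The 14 downward differences were inductions in WT cells that were small or missing in IKKβSA cells. All 14 had their largest WT change upward, and all 14 were called in the WT course, against 2 in the IKKβSA course. The largest IKKβSA change was upward for 9 of the 14 and downward for 5. Their median log2 changes at 15, 30, 45, 60 and 90 min were -0.07, -0.03, 0.02, 0.12 and 0.21 in IKKβSA cells. The WT medians were -0.06, -0.02, 0.37, 0.68 and 0.95. The courses of the 2 cell types separated after 30 min. The largest difference came at 90 min for 10 and at 60 min for the other 4. Both courses served to find the 14. A downward difference favours a rise in WT cells and a low IKKβSA change, so these values are largely fixed by the choice.

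P9 had the smallest adjusted p of the 28. Its intensities were 43.9, 39.6, 39.8, 41.5, 40.4 and 48.7 in IKKβSA cells. In WT cells they were 51.4, 42.9, 42.7, 62.2, 84.7 and 112. P9 stayed within a narrow band in IKKβSA cells and more than doubled in WT cells (difference at 90 min -0.97 ± 0.16, SE, limma adjusted p = 1.33e-05). It was called in 11 of 12 alternative settings run on the same probe sets, the exception being the setting that also asked for a 2-fold difference. P18 had 47.4, 44.9, 44.0, 48.0, 50.9 and 59.5 in IKKβSA cells, against 57.2, 46.7, 55.7, 85.0, 104 and 102 in WT cells. Its difference was -0.76 ± 0.16 (SE) at 60 min (limma adjusted p = 0.00098), and it was called in 9 of the 12.

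P2, P3, P4 and P6 had larger differences at low intensity. P2 had 3.48, 3.59, 3.48, 3.92, 4.78 and 5.03 in IKKβSA cells, against 3.47, 3.67, 4.61, 5.15, 6.91 and 15.2 in WT cells. P2 started at the same level in both and rose late in WT cells (difference at 90 min -1.60 ± 0.30, SE, limma adjusted p = 0.0167). P4 had 7.92, 6.63, 7.02, 6.40, 7.99 and 5.81 in IKKβSA cells, against 10.94, 10.95, 10.86, 14.3, 17.5 and 20.1 in WT cells. The 2 series of P4 did not overlap, and the difference at 90 min was -1.32 ± 0.22 (SE, limma adjusted p = 0.00418). P6 reached 4.42 in IKKβSA cells and 12.7 in WT cells at 90 min (difference -1.08 ± 0.29, SE, limma adjusted p = 0.0293). P3 reached 3.31 in IKKβSA cells and 6.86 in WT cells at 90 min, and its largest difference was -1.39 ± 0.27 at 60 min (SE, limma adjusted p = 0.0152). Of the 14 downward differences, 6 had no intensity of 32 or more in any of the 12 columns.

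The other CD40 courses of wild type cells give a scale for these 14. At 90 min the median log2 change of the 14 was 0.21 in IKKβSA cells, against 0.90 in WT + Inh cells and 0.24, 0.69 and 0.95 in WT cells at 1, 3 and 6 μg/ml. The IKKβSA course and the WT course at 6 μg/ml both served to find the 14, so a low value in the mutant is fixed by the choice, and the 2 lower doses share its 0 min column, while the WT + Inh course shares no column with it.

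The 14 upward differences were for the most part repressions in WT cells. In 13 of the 14 the largest WT change was downward. Median log2 changes at the 5 times were -0.02, 0.14, 0.16, 0.21 and 0.27 in IKKβSA cells. In WT cells they were -0.10, -0.33, -0.37, -0.45 and -0.59. All 14 were lower in IKKβSA than in WT cells at 0 min (median log2 difference -0.44), and 13 were higher at 90 min (median 0.34). Both courses served to find the 14. An upward difference from 0 min favours a low IKKβSA and a high WT value at 0 min, so these levels are largely fixed by the choice. At 90 min the median log2 changes of the 14 were 0.03 in WT + Inh cells and -0.27, -0.30 and -0.59 in WT cells at 1, 3 and 6 μg/ml.

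P5 and P10 are examples of a level that held in the mutant. P5 had 23.7, 23.3, 27.2, 27.1, 27.3 and 25.2 in IKKβSA cells. In WT cells P5 had 40.7, 36.2, 32, 31.5, 23.6 and 19.3. The WT series of P5 fell at each step while the IKKβSA series stayed flat (difference at 90 min 1.17 ± 0.19, SE, limma adjusted p = 0.00418). P10 had 36.2, 35.3, 37.1, 35.0, 35.7 and 33.7 in IKKβSA cells, against 41.2, 35.3, 26.0, 22.8, 22.1 and 20.6 in WT cells. P10 had equal levels at 15 min, and the difference at 90 min was 0.90 ± 0.23 (SE, limma adjusted p = 0.0271).

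P1, P7 and P8 were dim and started lower in the mutant. P1 had 4.27, 7.34, 5.79, 6.30, 5.82 and 7.64 in IKKβSA cells, against 10.8, 12.5, 7.79, 8.03, 7.10 and 5.63 in WT cells. The difference of P1, the largest of the 28, was 1.78 ± 0.35 at 90 min (SE, limma adjusted p = 0.0464), and it rests on the low 0 min value in IKKβSA cells as much as on the WT decline. P7 had 7.04 at 0 min and 8.96 at 90 min in IKKβSA cells, against 9.77 and 5.93 in WT cells (difference 1.07 ± 0.24, SE, limma adjusted p = 0.0248). P8 had 8.15 at 0 min and 4.86 at 90 min in IKKβSA cells, against 13.5 and 4.81 in WT cells, with a largest difference of 1.03 ± 0.23 at 60 min (SE, limma adjusted p = 0.00718).

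The 2 directions depended unequally on the unstimulated columns. A fit without the 0 min columns called 13 probe sets for the difference, and 9 of them were among the 28. That fit still tests change from a 0 min level, which it extrapolates from the stimulated columns of each cell type, BCR courses included. Of these 9, 8 were downward differences, P9 and P4 among them, and 1 was an upward difference (R1). R1 rose in both cell types, and it rose more in IKKβSA cells. The other 13 upward differences, P5 and P10 included, had their largest WT change downward and were not called in that fit. Later columns mattered as well, and fits without the 60 min or without the 90 min columns called 2 probe sets each, P9 in both. The sign of the difference measured from 15 to 90 min was the same as from 0 min for 13 of the 14 upward and for all 14 downward ones. The 28 were called in these same columns, mostly for differences that were largest late. That sign is thus largely fixed by the choice and gives no separate support.

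A straight line over time, fitted by limma to the IKKβSA minus WT differences of the 6 pairs of columns, gave 96 calls (0.358%), and 24 of them were among the 28. The slope was upward for 63 and downward for 33. In 50 of the 63 upward slopes the WT course changed downward from 0 to 90 min, and the medians at 90 min were 0.22 in IKKβSA cells and -0.56 in WT cells. In 30 of the 33 downward slopes the WT course changed upward, with medians of 0.10 in IKKβSA cells and 0.69 in WT cells. The 96 were called and given their direction in these same columns, so these counts and medians are largely fixed by the choice. The 28 rest on the same columns, so the overlap gives no separate support. The fit has 4 residual degrees of freedom for each probe set.

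**Figure D5:**
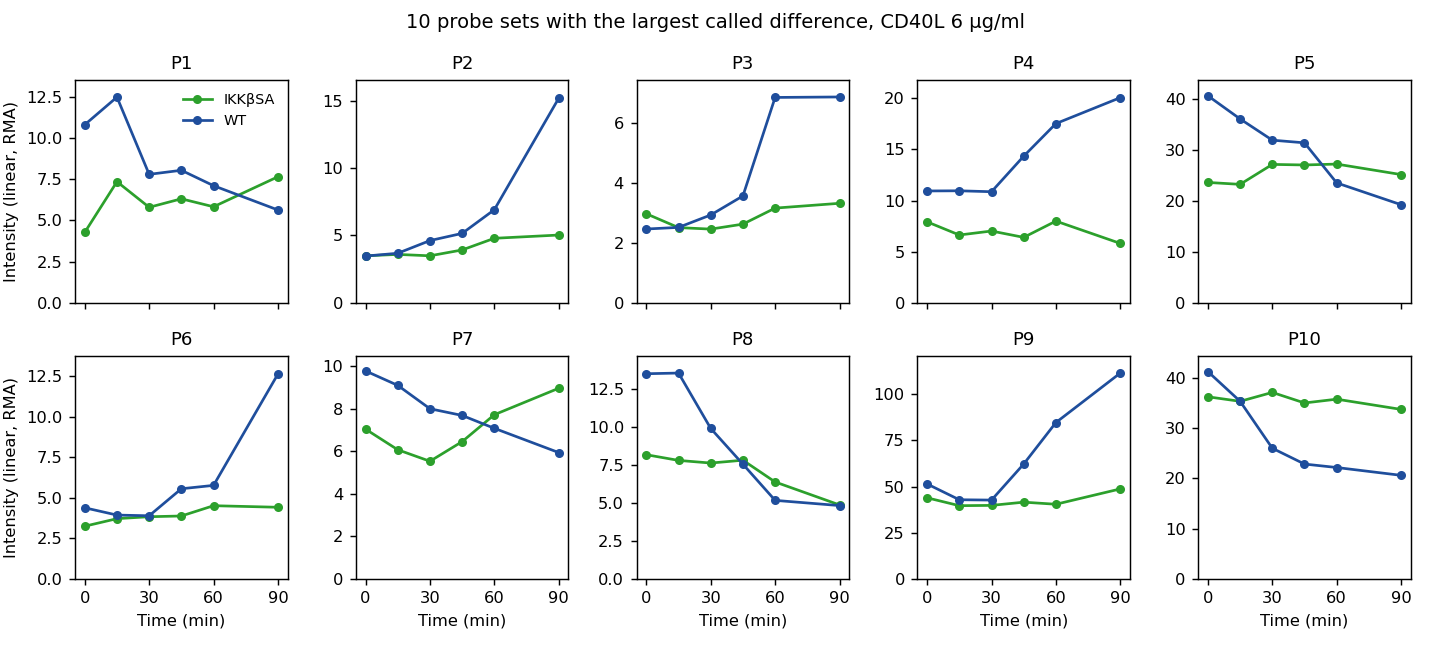
RMA intensity (vertical axes, linear from 0, ranges differ between panels) against time after CD40L at 6 μg/ml (horizontal axes, minutes) for the 10 probe sets with the largest called difference (P1 to P10), in IKKβSA (green) and WT (blue), 1 column per point. In P2, P3, P4, P6 and P9 the WT course climbs to 90 min while the IKKβSA course ends at less than the WT value, and in P5 and P10 the WT course declines while the IKKβSA course stays near its start.

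The difference between IKKβSA and WT cells was also compared with that in the response to the B cell receptor (BCR), stimulated with anti-IgM at 10 μg/ml. Both comparisons use the same 2 unstimulated columns. In the BCR course the difference IKKβSA minus WT was called for 2648 probe sets (9.86%), and in the CD40 course for 28 (0.104%). Before adjustment, a limma p under 0.05 was found for 26.1% in the BCR course and 5.33% in the CD40 course. Over all probe sets tested, the median absolute difference at 90 min was 0.16 in the CD40 courses and 0.25 in the BCR courses. The test of whether the difference itself changes with the stimulus called 389 probe sets (1.45%). At a given time the 0 min columns cancel from the observed values, but they enter the fitted curves, and a fit without them called 654. Without adjustment, 4909 (18.3%) had a p under 0.05.

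For 306 of the 389 (1.14% of those tested) the difference IKKβSA minus WT was lower after CD40L than after anti-IgM. Their median difference at 90 min was 0.14 after CD40L and 0.63 after anti-IgM. For the other 83 (0.309%) it was higher after CD40L, with medians of 0.08 after CD40L and -0.34 after anti-IgM. The difference at 90 min was larger in size after anti-IgM for 289 of the 306 and for 60 of the 83. The 389 were called and given their direction in these same columns, so these medians and counts are largely fixed by the choice. Over all probe sets tested, too, the median absolute difference at 90 min was larger after anti-IgM (0.25, against 0.16 after CD40L). Centring of the columns on their medians gave 975 calls, of which 95 were higher and 880 lower. A spline with 2 degrees of freedom gave 74, and fits without the 45, 60 or 90 min columns gave 20, 14 and 39. The BCR and CD40 ligands were given at 1 dose each in IKKβSA cells, and the strength of the 2 stimuli cannot be compared from these doses.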

How the data were processed

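The authors hybridised RNA to Affymetrix GeneChip Chicken Genome arrays and deposited RMA intensity values on a linear scale, with 2 biological replicates combined in each of 53 columns. How the replicates were combined, and the version of RMA, are not given in the sources used here. The deposited intensities were taken to log2 without a pseudocount. Dim probe sets, whose mean log2 value did not exceed the 30th percentile (1.05), were dropped. They numbered 11509 of 38361, and 26852 were tested.

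Models were fitted with limma 3.58.1 in R 4.3.3. Each cell condition had its intercept, and each of the 10 courses a natural cubic spline with 3 degrees of freedom over time, with knots at 25 and 50 min, boundaries at 0 and 90 min and the value 0 at 0 min. This gave 33 parameters and 20 residual degrees of freedom over the 53 columns. Limma's moderated F-test was applied to the 3 coefficients of a course, or to their differences from another course, with the error trend over intensity, and p-values were adjusted by Benjamini-Hochberg over the 26852 probe sets. Probe sets were called at an adjusted p under 0.05. The p-values measure deviations from smooth curves, not the spread between cultures, and the number of arrays limits the precision. Groups came from the sample titles. Direction is that of the largest observed change.

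The members and lists were chosen with earlier results of these data known. Probe sets described singly are the 4 largest rises and the 4 largest falls of each course with an intensity of at least 32 in any of the 12 columns, and the 10 largest called differences. P18 was added after its values were seen.

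The platform annotation gives 1 gene symbol for 27168 identifiers, several for 177 and none for 11016, and none was used. The 32 identifiers listed in the study's early-induced BCR cluster had, in this table, a median largest log2 change of 0.27 in the WT BCR course, the same as all rows (0.27), and 0 of them changed 2-fold. Results that need a gene's name, and the printing of probe or promoter sequences, were left out for this reason. No scanner files were used here. Alternatives were other filters, an offset of 10 before log2, centring, 2 spline degrees of freedom, fits of fewer columns, a 2-fold minimum, a line over time through pairs of columns, and lists chosen in other courses.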

Additional observations from a re-analysis of the deposited data

Results flagged for a closer look

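A test of the difference itself set the CD40 response of IKKβSA cells apart from that of WT cells for 28 probe sets, 14 with an upward and 14 with a downward difference (limma adjusted p under 0.05). The downward ones were inductions in WT cells with a median log2 change at 90 min of 0.21 in IKKβSA cells and 0.95 in WT cells. The upward ones had medians of 0.27 in IKKβSA cells and -0.59 in WT cells, and all 14 started lower in IKKβSA cells. Both courses served to find the 28, so these values are largely fixed by the choice. A fit without the 0 min columns called 8 of the 14 downward and 1 of the 14 upward ones. In the BCR courses, which share the 0 min columns, the difference was also called for 12 of the 14 upward and 6 of the 14 downward ones. Over all probe sets tested it was called there for 9.86%.

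A further test set the IKKβSA minus WT difference after CD40L apart from that after anti-IgM for 389 probe sets, 306 lower and 83 higher after CD40L. For the 306, the median IKKβSA minus WT difference at 90 min was 0.14 after CD40L and 0.63 after anti-IgM. The same columns served to find the 389, so these values are largely fixed by the choice.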

How the results depend on the processing

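The deposited columns allow no estimate of the spread between cultures, and counts of calls depended on which columns entered the fit. In the IKKβSA course (926 calls), fits of only the course compared gave 1706, without the 0 min columns 540, and with a 2-fold minimum 77. Leaving out the 15, 45, 60 or 90 min columns gave 1476, 437, 541 and 210 calls. In the WT course (1764 calls), 2 spline degrees of freedom gave 2823, no 0 min columns 1037, and a 2-fold minimum 104. A fit of only the WT course gave 2021, counted below among the settings within 1.5 times. Leaving out the 15, 45, 60 or 90 min columns gave 2664, 738, 905 and 575 calls. In each of these settings without a column time, the WT course had more calls than the IKKβSA course. For the difference between the courses (28 calls), centring gave 17, no 0 min columns 13, a 2-fold minimum 8 and a line over time through 6 pairs of columns 96, of which 24 were among the 28. Leaving out the 30, 45, 60 or 90 min columns gave 10, 6, 2 and 2 calls, of which 8, 6, 2 and 2 were among the 28. Those fits held 10 residual degrees of freedom in place of 20. For the CD40 effect minus the BCR effect (389 calls), centring gave 975, 2 spline degrees of freedom 74, only the courses compared 1311, no 0 min columns 654 and a 2-fold minimum 64. Leaving out the 15, 30, 45, 60 or 90 min columns gave 1918, 167, 20, 14 and 39. Beyond the number of columns and the thresholds, the cause was not tested. The other settings stayed within 1.5 times these counts, 6 for each course, 6 for the difference and 3 for the last comparison.

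The median difference at 90 min of the induced list (0.05) was -0.27 when chosen in the WT course and 0.35 when chosen in the IKKβSA course, as a list chosen by its own outcome favours the course that chose it. For the repressed list (0.18) it was 0.57 when chosen in the WT course at 3 μg/ml and 0.56 when chosen in that at 6 μg/ml. The other 6 settings gave -0.01 to 0.13 for the induced list and 0.06 to 0.26 for the repressed list. The lowest values of the repressed list, 0.06 each, came from an offset of 10 and from changes measured from 15 min. No paired analysis was possible because the columns carry no replicate numbers by which to pair cultures, and the line over time pairs columns by time only. Signal over background limits the 10 of the 28 differences whose intensities stayed under 32.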
